A study of Mus musculus with 6 samples.

Results

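Gdf15 and 9 further genes of the integrated stress response were followed in mouse heart after myocardial infarction (MI), with the question of whether the targets of the transcription factor ATF4 moved with Gdf15 when Zeb2 was deleted. The 10 genes were taken by name from the 38293 genes of the count table. They are the stress hormones Gdf15 and Fgf21, the transcription factors Atf3, Atf4, Atf5 and Ddit3, the ATF4 inhibitor Trib3, and the metabolic and stress effectors Asns, Sesn2 and Mthfd2. The set was selected on the p-value of Gdf15 for genotype, which was low in these same libraries (no threshold was stated), so its difference between the genotypes is given here as a description and not as a test.

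The series held 3 WT and 3 Zeb2 cKO libraries, all from C57BL/6J (backcrossed) hearts 14 days after permanent occlusion of the left anterior descending (LAD) coronary artery. In Zeb2 cKO hearts a floxed Zeb2, which encodes a zinc finger repressor that binds E-boxes, was deleted by a Cre driven by the cardiomyocyte promoter of Myh6. The libraries labelled WT came from animals that the study calls Zeb2 fl/fl, so the controls carried the floxed allele, and no library is labelled as Cre alone or as a sham operation. The labels place the tissue at the border of the infarct and the methods of the study place it in the remote zone, for both groups alike.

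The integrated stress response is the common pathway of the kinases that phosphorylate the initiation factor eIF2 when a cell lacks amino acids or haem, senses viral RNA or accumulates misfolded protein. Phosphorylated eIF2 lowers translation in general but allows translation of the ATF4 mRNA, so that ATF4 activity is set largely at the level of its protein, and ATF4 then switches on genes for amino acid supply, for redox defence and, through Ddit3 (CHOP), for cell death. GDF15 and FGF21 are hormones secreted by stressed tissue, and GDF15, which is also a target of p53, is a circulating marker of cardiac stress.

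The promoters of the members differ in whether they hold a match to the consensus of the element through which ATF4 acts, and 4 are shown for that reason. Sequences came from RefSeq (GRCm38.p6) and run 5′ to 3′ on the strand of the gene, from 250 bases before the transcript start to 30 bases after it. Capitals mark the C/EBP-ATF response element TGATGNAA (N is any base), the cAMP response element core TGACGT and the E-box CACCTG of the kind that ZEB proteins bind, each searched on both strands.
Gdf15 promoter, chr8:70632427-70632706, minus strand: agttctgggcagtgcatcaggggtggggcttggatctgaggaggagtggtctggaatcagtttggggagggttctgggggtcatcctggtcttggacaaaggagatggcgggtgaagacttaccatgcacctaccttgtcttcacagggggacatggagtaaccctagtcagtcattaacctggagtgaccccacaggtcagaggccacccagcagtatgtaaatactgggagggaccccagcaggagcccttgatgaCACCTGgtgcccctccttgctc
Atf3 promoter, chr1:191183304-191183583, minus strand: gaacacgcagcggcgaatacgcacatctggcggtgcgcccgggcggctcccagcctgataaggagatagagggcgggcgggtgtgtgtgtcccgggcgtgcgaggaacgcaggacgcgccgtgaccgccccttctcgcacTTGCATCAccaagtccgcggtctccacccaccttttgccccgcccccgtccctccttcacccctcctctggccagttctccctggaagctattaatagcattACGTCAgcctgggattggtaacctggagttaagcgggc
Trib3 promoter, chr2:152344031-152344310, minus strand: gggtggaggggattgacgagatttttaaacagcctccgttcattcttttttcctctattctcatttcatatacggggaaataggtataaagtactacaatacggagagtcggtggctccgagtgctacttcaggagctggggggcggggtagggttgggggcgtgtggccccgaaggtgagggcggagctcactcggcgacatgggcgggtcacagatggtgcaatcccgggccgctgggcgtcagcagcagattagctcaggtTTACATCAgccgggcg
Asns promoter, chr6:7693180-7693459, minus strand: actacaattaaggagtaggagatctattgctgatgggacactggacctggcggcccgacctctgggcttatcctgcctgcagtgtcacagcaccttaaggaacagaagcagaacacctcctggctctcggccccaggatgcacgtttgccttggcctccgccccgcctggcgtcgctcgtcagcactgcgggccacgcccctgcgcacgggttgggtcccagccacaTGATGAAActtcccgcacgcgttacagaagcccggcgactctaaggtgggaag

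All 10 members matched a RefSeq promoter, with 12 promoters among them, and the search window ended 50 bases after the start. The C/EBP-ATF response element was found in 4 members, namely Fgf21, Atf3, Trib3 and Asns, against 3.97% of all 32851 promoters. In Atf3 it lay at bases -110 to -103, counted from the transcript start, and the cAMP response element core, present in 7.51% of all promoters, lay at -8 to -3. In Asns it lay at -23 to -16 and in Trib3 at 15 to 22. Neither promoter of Gdf15 in the table held it, and each held the ZEB-kind E-box, at 9 to 14 in the sequence shown and at -190 to -185 upstream of the other start. That E-box stood in 20.2% of all promoters and, among the members, in Gdf15, Atf4 and Atf5. A match is a run of letters and not a measured binding site. A missing match does not show that the element is absent, as a single consensus was searched in a short window. Of 34 other listed target genes, 14 held the C/EBP-ATF response element in this search.

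The libraries held 37288174 to 51136331 counts each, of which 14301225 to 19024394 lay outside the 37 mitochondrially encoded genes. Cardiomyocyte markers summed to between 34046 and 66383 counts per 1000000 counts (CPM) in every library, so the tissue label of heart was met. WT replicate 2 stood apart from the other 5 libraries. Its 10 fibroblast markers summed to 10551 CPM against 1846 to 2562 CPM elsewhere, its 10 macrophage markers to 841 CPM against 210 to 292 CPM, and its cardiomyocyte sum was the lowest. Log2 fold changes of the members, and those of other named genes that moved by over 1.5 times, are therefore given with and without it. Zeb2 itself measured 61.3, 116.05 and 71.9 CPM in WT replicates 1, 2 and 3 and 59.6, 72.6 and 66.5 CPM in Zeb2 cKO replicates 1, 2 and 3. The groups overlapped, and the log2 fold change of -0.33 became -0.0058 without WT replicate 2. The deletion was thus not visible in the whole-gene counts, and for these libraries the genotype rests on the labels. The study itself reports that its Zeb2 cKO mice had lost ZEB2 from cardiomyocytes, by qPCR and immunofluorescence after MI. As background, Zeb2 is also expressed by cells of the heart in which Cre was not active. In bulk tissue, fewer cells of a type and less RNA per cell cannot be told apart.

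Gdf15 (ENSMUSG00000038508; GRCm38 chr8:70629393-70632456, minus strand) was lower in every library labelled Zeb2 cKO than in any labelled WT. It measured 1.30, 1.71 and 0.859 CPM in WT replicates 1, 2 and 3, and 0.280, 0.323 and 0.540 CPM in Zeb2 cKO replicates 1, 2 and 3. The means were 1.29 ± 0.425 CPM in WT and 0.381 ± 0.139 CPM in Zeb2 cKO (SD, n = 3 each). WT 3, the lowest control, stood above Zeb2 cKO 3, the highest library of its group, and the remaining Zeb2 cKO libraries stood close together.

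The log2 fold change of Gdf15, Zeb2 cKO against WT, was -1.75 (SE 0.38, 95% interval -2.66 to -0.86), or 3.36-fold higher in WT. It ranked 5 by p-value among the 14746 genes tested, and 56 genes (0.38%) had a log2 fold change at or under its own. These are the values by which it was picked. They rest on few reads, 157 counts over the WT libraries (exact Poisson 95% interval 133.4 to 183.6) against 57 over the Zeb2 cKO libraries (43.17 to 73.85), and such intervals cover counting error only. Groups that did not overlap with Zeb2 cKO lower were seen for 2.97% of all genes tested. No gene in the table passed an adjusted p of 0.05 by the quasi-likelihood test of edgeR with Benjamini-Hochberg adjustment (percent called 0), Gdf15 included. At an unadjusted p under 0.05 edgeR called 280 genes (1.9%), while DESeq2 called 361 genes, and 2 genes after adjustment, Slc46a2 and Mrap2, which are not members and are named because they were the genes called.

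Without WT replicate 2 the groups of Gdf15 still did not overlap and the log2 fold change was -1.48, again as a description. WT replicate 2, with the highest macrophage sum (841 CPM), had the highest Gdf15, and WT replicate 1, with the lowest macrophage sum (210 CPM), the second-highest. With the mean level of the macrophage markers as a covariate the log2 fold change was -1.57. That level (log2 CPM, centred) was 1.45 in WT replicate 2 and -0.57 to -0.11 in the other libraries. The covariate therefore mostly marks WT replicate 2 and cannot test the part of macrophages.

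**Figure D1:**
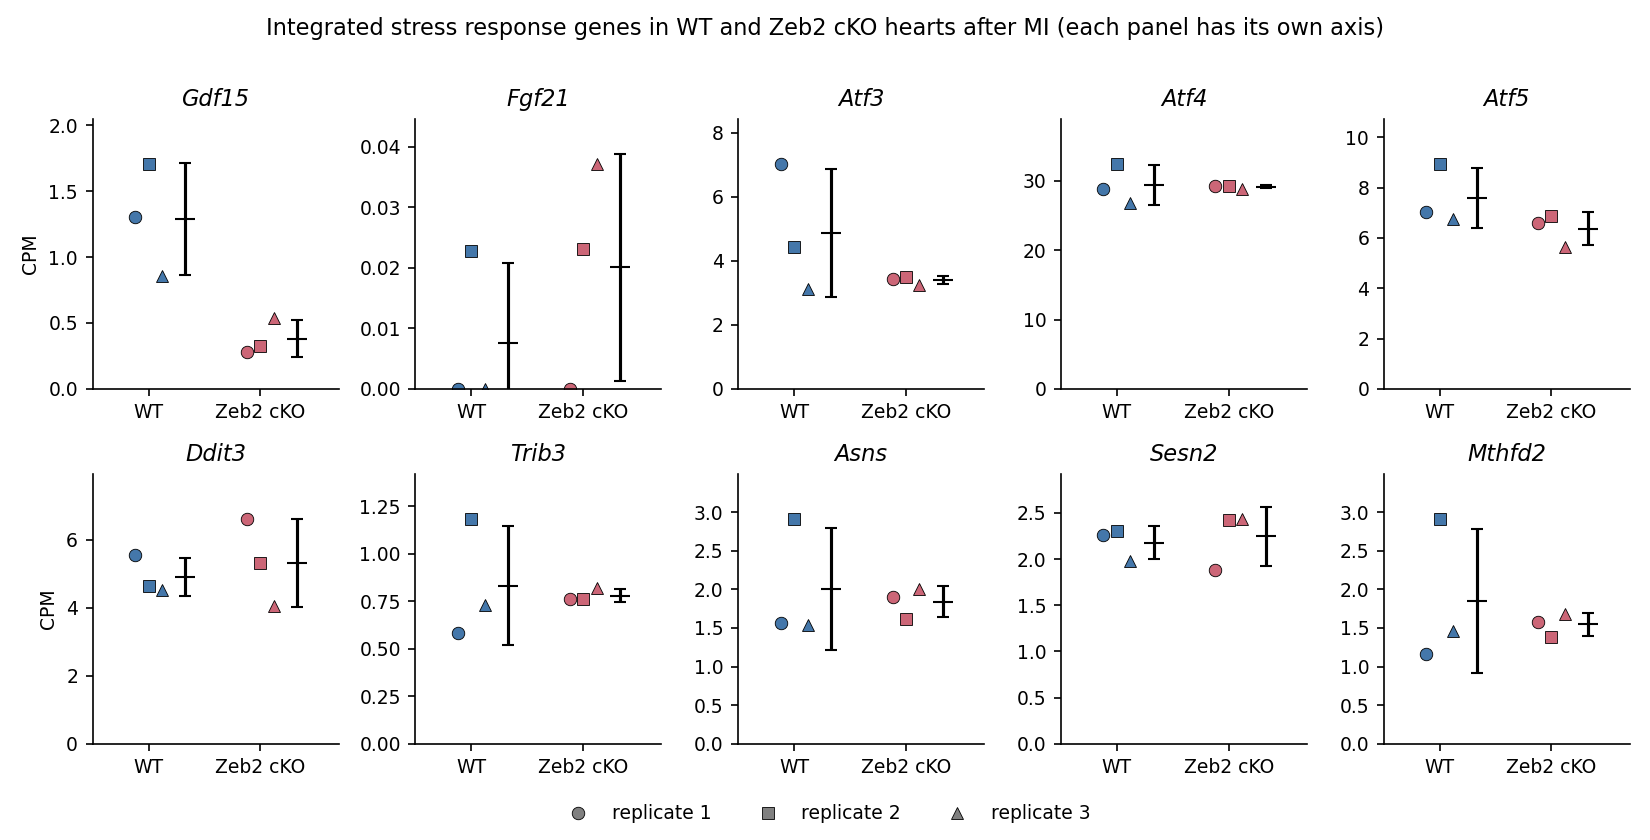
Normalized counts per 1000000 counts (CPM, vertical axis, one scale per panel) of the 10 genes in each of the 3 WT and 3 Zeb2 cKO libraries, with marker shapes for the replicate number and bars for the mean ± SD of each group. Gdf15 separates the groups, 0.859 to 1.71 CPM in WT against 0.280 to 0.540 CPM in Zeb2 cKO, Atf4 lies between 26.8 and 32.5 CPM in all libraries, and WT replicate 2 is the highest point for Trib3, Asns and Mthfd2.

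The other stress hormone, Fgf21 (chr7:45613886-45615490, minus strand), was next to absent at this depth. It had 0, 1 and 0 counts in the WT libraries and 0, 1 and 2 counts in the Zeb2 cKO libraries. All 6 counts lie under the floor of 3 counts per library, so a difference was not detectable and Fgf21 was not tested. The other 8 members passed the filter on low counts.

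Atf4 (chr15:80255184-80257541, plus strand), the transcription factor at the centre of the pathway, was the most abundant member and the steadiest. It measured 28.9, 32.5 and 26.8 CPM in WT replicates 1, 2 and 3 and 29.3, 29.3 and 28.9 CPM in Zeb2 cKO replicates 1, 2 and 3. The Zeb2 cKO libraries lay within the range of the WT libraries. Its log2 fold change was -0.0094 (SE 0.11, 95% interval -0.28 to 0.26), with an edgeR adjusted p of 0.996 and a two-sided exact permutation p of 1.0. The smallest p that such a permutation of 3 against 3 libraries can give is 0.1. These are mRNA levels, and ATF4 protein was not measured in these libraries.

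The remaining transcription factors differed by little or overlapped. Atf3 (chr1:191170296-191218039, minus strand), an early stress factor, measured 7.04, 4.44 and 3.12 CPM in WT replicates 1, 2 and 3 and 3.44, 3.48 and 3.26 CPM in Zeb2 cKO replicates 1, 2 and 3. WT 1 and WT 2 stood above all Zeb2 cKO libraries and WT 3 below them, so that the groups overlapped. The log2 fold change was -0.52 (SE 0.29), with an exact permutation p of 0.4. It was -0.16 without WT 1 and -0.76 without WT 3, the only omission of 1 library after which a member other than Gdf15 had an unadjusted p under 0.05.

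Atf5 (chr7:44812256-44816658, minus strand), a close relative of Atf4 linked to the mitochondrial stress response, measured 7.04, 8.95 and 6.77 CPM in WT replicates 1, 2 and 3 and 6.61, 6.87 and 5.64 CPM in Zeb2 cKO replicates 1, 2 and 3. WT 2 was highest, and Zeb2 cKO 2 lay above WT 3. The log2 fold change of -0.25 (SE 0.16, exact permutation p = 0.2) became -0.11 without WT 2. Of the Atf5 transcript, 4.68% is shared with transcripts of the overlapping genes Il4i1 and Nup62 on the opposite strand.

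Ddit3 (chr10:127290774-127296288, plus strand) encodes CHOP, the factor that carries the pathway towards cell death. It measured 5.55, 4.63 and 4.53 CPM in WT replicates 1, 2 and 3 and 6.61, 5.30 and 4.04 CPM in Zeb2 cKO replicates 1, 2 and 3. The Zeb2 cKO libraries included both the highest and the lowest value. Its log2 fold change was 0.12 (SE 0.21, exact permutation p = 0.7), and 0.079 without WT 2. Ddit3 overlaps Mars on the opposite strand, and how strand was used in the counting is not given in the sources used here.

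Among the targets of ATF4, Trib3, Asns and Mthfd2 shared one pattern. Trib3 (chr2:152337422-152344032, minus strand), a pseudokinase that restrains ATF4, measured 0.584, 1.18 and 0.729 CPM in WT replicates 1, 2 and 3 and 0.759, 0.761 and 0.819 CPM in Zeb2 cKO replicates 1, 2 and 3. Asns (chr6:7675169-7693254, minus strand), which makes asparagine, measured 1.57, 2.92 and 1.54 CPM in WT and 1.90, 1.61 and 2.01 CPM in Zeb2 cKO, in the same order. Mthfd2 (chr6:83305691-83325908, minus strand), of mitochondrial one-carbon metabolism, measured 1.17, 2.92 and 1.46 CPM in WT and 1.58, 1.38 and 1.67 CPM in Zeb2 cKO. For each of these genes WT 2 was the highest of the 6 libraries and WT 1 or WT 3 the lowest.

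The log2 fold changes were -0.10 (SE 0.31) for Trib3, -0.13 (SE 0.29) for Asns and -0.26 (SE 0.36) for Mthfd2, with exact permutation p of 1.0, 1.0 and 0.9. All of them turned over without WT replicate 2, to 0.25, 0.25 and 0.24. WT 2 is the library with the high fibroblast and macrophage markers, whose part in these values was not tested. With the macrophage covariate the log2 fold changes were 0.22, 0.19 and 0.19, but this covariate mostly marks WT 2 and cannot separate macrophages from that library.

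Sesn2 (chr4:132492032-132510501, minus strand), a leucine sensor and inhibitor of mTORC1, had its values close together. It measured 2.26, 2.30 and 1.98 CPM in WT replicates 1, 2 and 3 and 1.88, 2.42 and 2.44 CPM in Zeb2 cKO replicates 1, 2 and 3, and the groups overlapped. Its log2 fold change was 0.043 (SE 0.18, exact permutation p = 0.7), and 0.087 without WT 2.

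Counted over the 8 members other than Gdf15 that were tested, 3 had a log2 fold change under -0.2 (22.6% of all genes tested did), 0 had one over 0.2 (15.9% did) and 5 lay between. None had an unadjusted p under 0.05, 0 had groups that did not overlap (6.36% of all genes did), and edgeR adjusted p-values lay between 0.957 and 0.996. Their median log2 fold change was -0.11, beside -0.0069 for all genes tested. All 8 of the 95% intervals held 0. Their bounds ran from -1.21 (Atf3) to 0.63 (Trib3) at the extremes, and the narrowest interval was that of Atf4.

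Without WT replicate 2 the same 8 members gave 1 log2 fold change under -0.2 (Atf3, with 11.7% of all genes), 3 over 0.2 (14.2% of all genes) and a median of 0.083. None of them had an unadjusted p under 0.05 there (2.63% of all genes did). In that comparison Atf4, Trib3 and Asns had Zeb2 cKO libraries all above the 2 remaining WT libraries, as 8.07% of all genes did, and no member other than Gdf15 had them all below (7.48%). For Atf4 the difference was small, a log2 fold change of 0.072. The highest value of the 6 libraries was in WT 2 for 5 of the 8 members and for 35.2% of all genes tested.

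**Figure D2:**
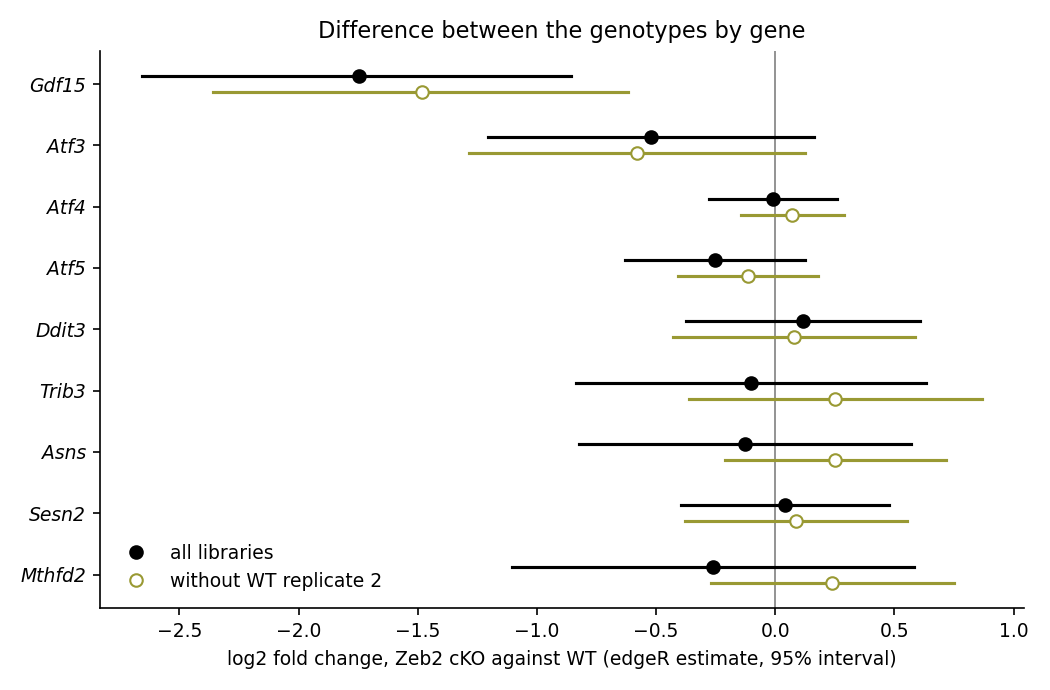
Log2 fold change of each member, Zeb2 cKO against WT (horizontal axis), with its 95% interval from edgeR, for all 6 libraries (filled) and without WT replicate 2 (open). Gdf15 lies at -1.75 and -1.48, while the intervals of the other 8 members hold 0 in both fits, and Trib3, Asns and Mthfd2 move from below 0 to above 0.

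Per kilobase of exon, the order of the levels over all 6 libraries ran from Atf4 (12.4 CPM per kb) through Atf5 (3.50), Ddit3 (2.98), Atf3 (1.92), Asns (0.703), Sesn2 (0.637), Mthfd2 (0.487), Gdf15 (0.451) and Trib3 (0.379) to Fgf21 (0.015 CPM per kb). Atf4 lay above every other member in every library. Atf5, Ddit3 and Atf3 overlapped in the ranges of their libraries with the neighbour in that order, as did the neighbours from Asns to Trib3. The lowest Atf3 level, 1.45 CPM per kb, stood above the highest Asns level, 1.07 CPM per kb. Gdf15 changed its place between the genotypes. In WT, at 0.696 CPM per kb, it lay between Asns (0.734) and Sesn2 (0.627), and in Zeb2 cKO, at 0.206 CPM per kb, it lay under Trib3 (0.367) and above Fgf21 (0.021).

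The upstream part of the pathway was measured by 14 genes for the eIF2 kinases, eIF2, its exchange factor eIF2B and the phosphatase subunits that reverse the signal. All 14 were tested, 3 had a log2 fold change under -0.2, 1 over 0.2 and 10 between, none with an unadjusted p under 0.05, and the median was 0.012 (0.021 without WT 2). Eif2ak3, which encodes the endoplasmic reticulum kinase PERK, measured 9.82, 11.7 and 9.61 CPM in WT replicates 1, 2 and 3 and 8.57, 8.83 and 9.14 CPM in Zeb2 cKO replicates 1, 2 and 3. Its groups did not overlap, with a log2 fold change of -0.23 (SE 0.12, exact permutation p = 0.1, edgeR adjusted p = 0.957) that was -0.13 without WT 2. In this list 2 genes, Eif2ak3 and Eif2ak2, had such groups with Zeb2 cKO lower, as did 2.97% of all genes tested. The other kinases lay at -0.23 (Eif2ak2, PKR), 0.078 (Eif2ak1, HRI) and 0.089 (Eif2ak4, GCN2), and at -0.23, 0.038 and 0.050 without WT 2. Eif2b4 had the lowest p of the list in the other direction, with a log2 fold change of 0.24 that was 0.074 without WT 2. Of the transcripts of Eif2ak3 and Eif2b4, 10.8% and 10.1% are shared with another gene.

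The aminoacyl-tRNA synthetases, a uniform group of ATF4 targets, lay close together. All 12 had log2 fold changes between -0.12 (Tars) and 0.15 (Sars, 0.060 without WT 2), with a median of 0.024 (-0.033 without WT 2), and none lay beyond 0.2 in either direction. Their summed level was 286 CPM in WT 2 and 312 to 321 CPM in the other 5 libraries.

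Genes of amino acid and one-carbon synthesis went both ways. Of 12 genes 10 were tested, with Phgdh and Cbs too low, 2 lay under -0.2 and 2 over 0.2, and the median was 0.034 (0.079 without WT 2). Gpt2, a mitochondrial alanine transaminase, measured 11.2, 6.40 and 10.8 CPM in WT replicates 1, 2 and 3 and 17.0, 14.1 and 11.7 CPM in Zeb2 cKO replicates 1, 2 and 3. Every Zeb2 cKO library lay above every WT library, as for 3.39% of all genes, with a log2 fold change of 0.60 (SE 0.24) that was 0.38 without WT 2. Aldh18a1, of proline synthesis, had a log2 fold change of -0.42 that was -0.018 without WT 2.

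Among the amino acid transporters, Slc7a11 had the lowest log2 fold change of its list. Of 10 genes 9 were tested, 3 lay under -0.2 and 0 over 0.2, and the median was -0.064 (0.038 without WT 2). Slc7a11, the cystine importer that feeds glutathione synthesis, measured 1.22, 0.319 and 0.443 CPM in WT replicates 1, 2 and 3 and 0.280, 0.138 and 0.261 CPM in Zeb2 cKO replicates 1, 2 and 3. WT 1 was far above the rest and the groups did not overlap (Zeb2 cKO lower, as for 2.97% of all genes), on counts of 6 to 46 per library. Its log2 fold change was -1.51 (SE 0.59, exact permutation p = 0.1), -1.84 without WT 2 and -0.72 without WT 1. Slc7a1, the cationic amino acid transporter, lay at 0.097, and at -0.040 without WT 2.

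The list of other ATF4 and CHOP targets had 13 genes, all tested, with 5 under -0.2, 2 over 0.2 and a median of -0.14 (-0.073 without WT 2). Ddit4, an inhibitor of mTORC1 that is also induced by hypoxia and glucocorticoids, measured 7.19, 4.15 and 4.69 CPM in WT replicates 1, 2 and 3 and 2.5, 2.74 and 4.37 CPM in Zeb2 cKO replicates 1, 2 and 3. Zeb2 cKO 3 lay above WT 2, so that the groups overlapped. The log2 fold change was -0.73 (SE 0.30, exact permutation p = 0.2), and -0.88 without WT 2. Gadd45a, of the DNA damage response, lay at 0.44, at 0.20 without WT 2 and at 0.73 without WT 1, and 19.5% of its transcript is shared with another gene. Nupr1, a stress-induced chromatin regulator named for the lowest log2 fold change of the list (-1.30), had 675 counts in WT 2 and 114 to 178 in the other libraries, and lay at -0.14 without WT 2.

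Slc7a11 (edgeR unadjusted p = 0.0361), Ddit4 (0.0436) and Gpt2 (0.0457) were the only genes of the 9 pathway lists with an unadjusted p under 0.05, where 0.861% of all genes were called lower and 1.04% higher, and each had an edgeR adjusted p of 0.957. Each of these calls was lost when certain single libraries were left out. The unadjusted p passed 0.05 for Slc7a11 without WT 1 or any Zeb2 cKO replicate. It did so for Ddit4 without WT 1 (log2 fold change -0.46), WT 3, Zeb2 cKO 1 or Zeb2 cKO 2, and for Gpt2 without WT 3, Zeb2 cKO 1 or Zeb2 cKO 2. With the replicate block the Ddit4 call was also lost (edgeR unadjusted p = 0.0584). Other named genes gained calls. Clpx fell under 0.05 without WT 1 or WT 2, without the filter on low counts and with the macrophage covariate. Gadd45a and Zmat3 did so without WT 1, Ret without WT 3, and Fgfr2 without WT 1 or WT 3.

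**Figure D3:**
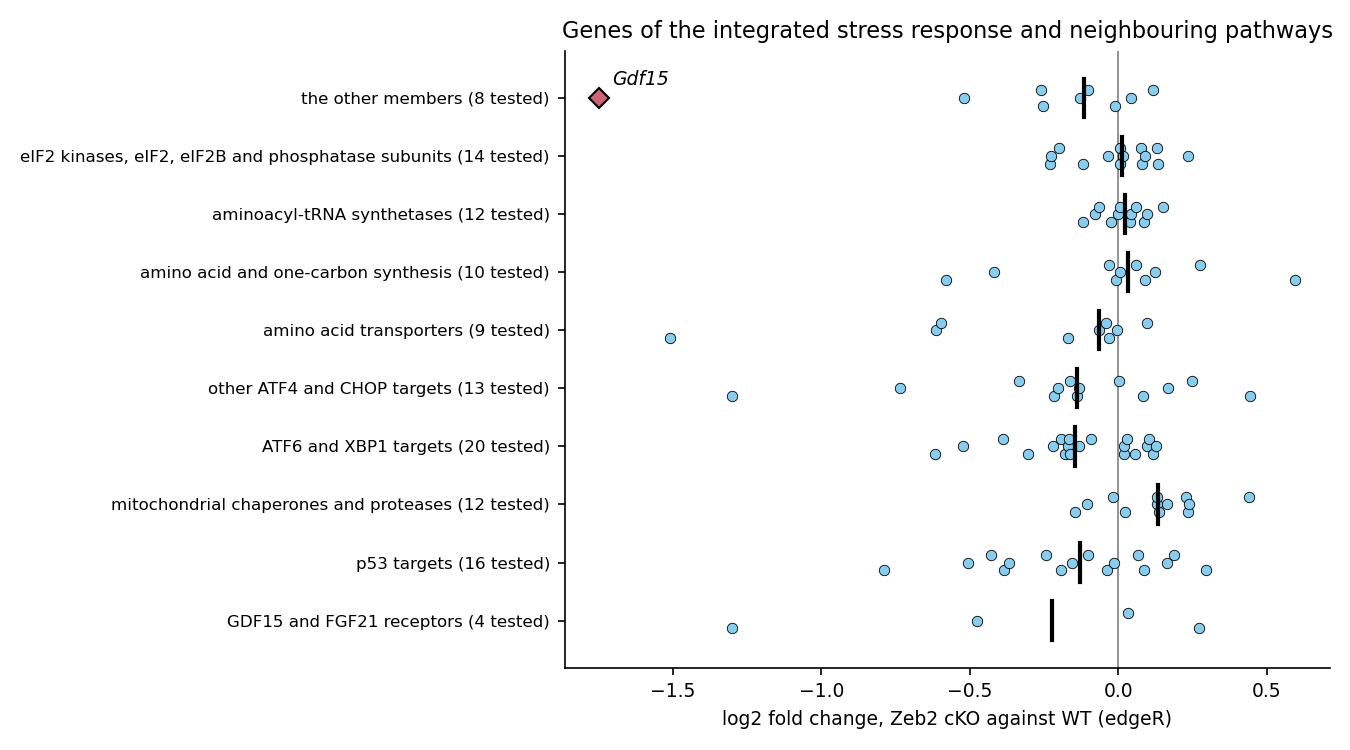
Log2 fold change, Zeb2 cKO against WT (horizontal axis, edgeR), of every tested gene of the other members and of the 9 pathway lists, one circle per gene, with a black bar at the median of each row and Gdf15 as a diamond. The medians lie between -0.22 and 0.13. Gdf15, which was picked for its difference in these libraries, is at -1.75, further to the left than any listed gene, the nearest being Slc7a11 at -1.51.

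The neighbouring stress pathways were read in the same way. Of 20 targets of ATF6 and XBP1, the factors of the unfolded protein response, 5 lay under -0.2 and 0 over 0.2, with a median of -0.15 that was -0.0071 without WT 2. Pdia6, a protein disulfide isomerase, had groups that did not overlap (Zeb2 cKO lower, as for 2.97% of all genes), with a log2 fold change of -0.30 (-0.14 without WT 2). Hyou1, a chaperone of the endoplasmic reticulum, lay at 0.13, and at 0.075 to 0.23 with each library left out in turn. Of 12 mitochondrial chaperones and proteases, 0 lay under -0.2 and 4 over 0.2, with a median of 0.13 that was -0.011 without WT 2. The protease subunit Clpx measured 43.1, 26.2 and 40.4 CPM in WT replicates 1, 2 and 3 and 53.5, 48.3 and 47.3 CPM in Zeb2 cKO replicates 1, 2 and 3, with a log2 fold change of 0.44 (0.25 without WT 2). Of its transcript, 10.8% is shared with another gene. Yme1l1, a protease of the inner membrane, lay at -0.11 (-0.0084 without WT 2).

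The p53 targets, of which Gdf15 is one, centred near 0 once WT replicate 2 was set aside. Of 16 genes, all tested, 6 lay under -0.2, 1 over 0.2 and 9 between, none with an unadjusted p under 0.05, and the median of -0.13 was 0.017 without WT 2. Cdkn1a, the cell cycle inhibitor p21, lay at -0.37, Zmat3 at -0.43 and the nuclease gene Aen at 0.29. Without WT 2 these were -0.11, -0.20 and 0.13.

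The ligand-specific receptors were near 0 in these libraries, while the receptors they pair with were expressed. Gfral, the receptor of GDF15, and Klb, the co-receptor of FGF21, had 0 counts in all 6 libraries, which allows up to 3 counts in each, or 0.0558 to 0.0796 CPM. Fgfr4 had 0 to 2 counts. Fgfr1, the FGF receptor with the most counts, had 1764 in WT 2 and 624 to 1117 in the other libraries, with a log2 fold change of -0.48 that was 0.013 without WT 2. Of the 7 genes 4 were tested, with a median of -0.22 (-0.011 without WT 2). Fgfr2 had 4.76 CPM in WT 2 and 0.639 to 1.06 CPM elsewhere, so that its log2 fold change of -1.30 was -0.035 without that library. Ret, the signalling co-receptor of GFRAL, lay at 0.27 (0.14 without WT 2), and Fgfr3 at 0.032 (-0.095 without WT 2).

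Library by library, the lower genes peaked in different WT libraries, but their patterns overlapped and a difference between them was not tested. Gdf15 was highest in WT 2 and next highest in WT 1. Atf3, Ddit4 and Slc7a11 were highest in WT 1, and Atf3 was also higher in WT 2 than in any Zeb2 cKO library. Atf5, Trib3, Asns and Mthfd2 were highest in WT 2, as were all 10 fibroblast and all 10 macrophage markers. In those marker lists all 10 genes lay under -0.2, with medians of -1.03 and -0.86 that were 0.048 and 0.049 without WT 2, and no marker was at 0 in all libraries. Neutrophil markers summed to 1.81, 4.99 and 3.33 CPM in WT and to 1.96, 1.5 and 2.62 CPM in Zeb2 cKO. The median of the 3 neutrophil markers tested was -0.78, and it stayed at -0.89 without WT 2. The part of these cells in the values was not tested, as the macrophage covariate mostly marks WT 2.

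**Figure D4:**
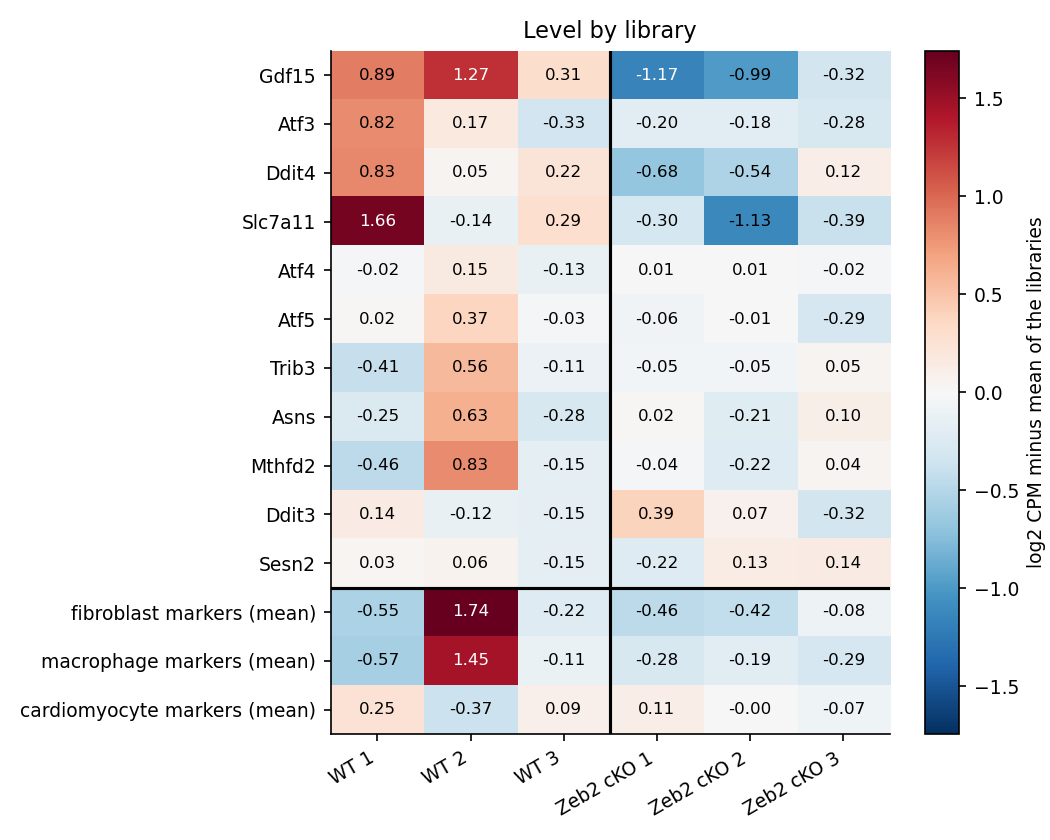
Level of 11 genes and of 3 marker lists (rows) in each library (columns), as log2 CPM minus the mean of that row over the 6 libraries, on a colour scale with the value printed in each cell. Gdf15 is above its mean in every WT library and below it in every Zeb2 cKO library, Slc7a11 and Ddit4 peak in WT 1, and Mthfd2, Asns and Trib3 peak in WT 2 together with the fibroblast and macrophage markers.

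The 5 genes whose pattern over the 6 libraries was most like that of Gdf15 were in none of the lists. The lists are a small part of the 14746 genes tested, so this placing says little about the pathway. By Pearson correlation of log2 CPM these were Mta3 (0.996), a subunit of the NuRD corepressor, Irf2bpl (0.991), Ttll3 (0.986), a tubulin glycylase, Klhl36 (0.986) and the transcribed pseudogene Gm6211 (0.984). Their log2 fold changes were -0.17, -0.40, -0.54, -0.58 and -0.48. Of the Gm6211 transcript, 6.34% is shared with other genes. The genes were picked as the 5 highest of all genes tested on 6 libraries that Gdf15 itself divides by genotype, so the values describe likeness and carry no test. Within the set the correlation with Gdf15 ran from -0.407 for Ddit3 to 0.622 for Atf5. Among the genes named from the pathway lists it ran from -0.889 for Gpt2 to 0.911 for Eif2ak3, with Ddit4 at 0.788. Those genes were themselves named for the lowest p for genotype in their lists.

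Gdf15 was picked for its difference, and its chromosomal neighbours had log2 fold changes nearer to 0. Lrrc25, 7910 bases away, measured 1.99 CPM in WT and 1.04 CPM in Zeb2 cKO on average, with overlapping groups and a log2 fold change of -0.93 (SE 0.44) that was -0.38 without WT 2. Ssbp4 lay at -0.28 with groups that did not overlap (Zeb2 cKO lower, as for 2.97% of all genes). Pgpep1 lay at 0.26 and Lsm4 at 0.20 (0.12 for each without WT 2), and the edgeR adjusted p of each neighbour was 0.957.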

How the data were processed

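Ribosome-depleted total RNA of heart tissue was sequenced in 6 libraries with a stranded kit. The authors aligned reads with the STAR workflow against Gencode M4 and deposited raw counts per gene, with DESeq 1.2 named in the submitters' processing notes. The STAR version, the treatment of multimapping reads and the strand option are not given in the sources used here. All columns of the table were matched to samples by their labels. Members, lists and the rule for named genes were chosen with earlier results of these data known.

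Symbols, coordinates and exon lengths came from Gencode M21 (GRCm38). The deposited counts were tested with edgeR 4.0.16 (R 4.3.3, limma 3.58.1) as trimmed-mean-normalized libraries, after the edgeR filter on low counts, by the quasi-likelihood test of Zeb2 cKO against WT, and p-values were adjusted by Benjamini-Hochberg over all 14746 genes tested. The common biological coefficient of variation was 0.243. Single genes were also given a two-sided exact permutation test over the 20 splits of log2 CPM (prior count 2). CPM are normalized counts per 1000000 counts of the library, mitochondrially encoded genes included. A log2 cutoff of 0.2 in either direction, the one used by the study, served for counting genes. In each list the gene with the lowest p in each direction was named, and the 5 genes most correlated with Gdf15. Shared transcript sequence (BLAST 2.17.0) meant stretches of at least 75 bases at 95% identity. Alternatives were DESeq2 1.42.0, its size factors, no filter, no mitochondrially encoded genes, a replicate block, the macrophage marker mean as covariate and each library left out. The fits were tested on simulated counts. The labels do not say that libraries came from separate animals, so p-values measure the spread between these libraries. No 2 replicates agreed within sampling noise.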

Additional observations from a re-analysis of the deposited data

How the results depend on the processing

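Gdf15 stayed lower under all 12 alternatives, with log2 fold changes from -2.09 to -1.48. It was picked for its difference in these same libraries, so refits of them describe that difference and do not test it. No member or listed gene passed an adjusted p of 0.05 under any alternative. DESeq2 called 2 genes after adjustment where edgeR called 0. Replicate numbers did not pair the libraries (correlations of same-numbered deviations of 0.088, -0.14 and -0.087 for replicates 1, 2 and 3), and the replicate block gave 0 adjusted calls and -1.74 for Gdf15. The macrophage covariate mostly marks WT 2, so it does not test the part of macrophages. With it, of the members other than Gdf15, 1 lay under -0.2, and their median was 0.070 and that of the p53 targets 0.038. The sign turned for Atf4 (0.049), Trib3 (0.22), Asns (0.19), Mthfd2 (0.19) and Slc7a1 (-0.041). Without the filter on low counts Atf4 lay at 0.0098. Leaving out each library in turn gave -0.072 to 0.072 for Atf4, -0.30 to 0.25 for Trib3, -0.29 to 0.25 for Asns, -0.50 to 0.24 for Mthfd2, -0.040 to 0.36 for Slc7a1, -0.022 to 0.16 for Sesn2 and -0.071 to 0.28 for Ddit3. Members other than Gdf15 under -0.2 numbered 1 to 4 and those with an unadjusted p under 0.05 numbered 0 to 1. Medians ran from -0.24 to 0.083 for the members other than Gdf15, -0.018 to 0.051 for the eIF2 list, -0.033 to 0.058 for the tRNA synthetases, -0.12 to 0.10 for amino acid and one-carbon synthesis, -0.33 to 0.038 for the transporters, -0.21 to -0.0071 for ATF6 and XBP1 targets and -0.18 to 0.017 for p53 targets. They ran from -0.21 to -0.073 for other ATF4 and CHOP targets, -0.011 to 0.31 for mitochondrial chaperones and proteases and -0.32 to -0.011 for the receptors. The cause was not tested. Depth limits Fgf21, Gfral and Klb, which lay at or under the floor, and Gdf15, Trib3 and Slc7a11, which rest on few reads in each library.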
